A study of Rattus norvegicus with 18 samples.

Results

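The nuclear genes of oxidative phosphorylation were followed through ischemia and reperfusion of the rat lung. They were the genes whose single annotated symbol belongs to the Ndufa, Ndufb, Ndufc, Ndufs or Ndufv families, to Sdha to Sdhd, to the Uqcr family or Cyc1, to Cox4 to Cox8, or to the Atp5 family. The rule gave 85 of the 10411 genes on the array, from 90 probe sets, and where a gene had several the one of highest mean was used. By role these were 36 genes of complex I, 5 complex I assembly factors whose symbols the rule also takes (Ndufaf3, Ndufaf4, Ndufaf5, Ndufaf7 and Ndufaf8), 4 of complex II, 8 of complex III, 16 of complex IV and 16 of complex V. The low-signal filter passed 84, and Cox6b2, the testis form of a complex IV subunit, was not tested (signals 15.3 to 70.0).

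Male Sprague-Dawley rats were anesthetized and ventilated, and the hilum of the left lung was clamped for 2 h at body temperature. The clamped left lungs were taken after 30 min (n = 3) or 3 h (n = 3) of reperfusion, the unclamped right lungs of these animals at 30 min (n = 3) or 3 h (n = 3), and control lungs from 6 other rats straight after sacrifice (n = 6). Each lung was 1 Affymetrix rat 230A array, so their number limits the precision, and left and right lungs of a time share animals. Controls had neither thoracotomy nor hours of ventilation, and their side is not given, so against control the clamp, the operation and the time under anesthesia cannot be told apart, and between the operated lungs clamp and side cannot be told apart.

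The respiratory chain passes electrons from NADH (complex I) and succinate (complex II) through ubiquinone to complex III, then through cytochrome c to oxygen at complex IV. Complexes I, III and IV pump protons across the inner mitochondrial membrane, and complex V, the ATP synthase, uses the gradient to make ATP. Most subunits are encoded in the nucleus. Complex I is a known source of reactive oxygen species when blood flow returns to an ischemic organ.

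Each value is the linear signal of a probe set, on a scale where all arrays have nearly the same trimmed mean. Differences are on log2(signal + 25) with limma standard errors, and a gene counts as higher or lower at a Benjamini-Hochberg adjusted p under 0.05 over all 10533 probe sets tested. Signals of different genes come from different probes and are not set against each other. Of arrays that stood apart, the 3'/5' actin ratio, a sign of RNA quality, was 4.81 and 2.30 in left 30 min replicates 1 and 3 and 2.93 in right 30 min replicate 3, and 1.31 to 1.78 on the other 15. Heart muscle markers, which the walls of rat pulmonary veins carry, varied widely: the mean log2 value of 20 such genes was 5.90 to 6.16 in left 3 h lungs and 7.08 to 8.65 in right 3 h lungs, against 5.80 to 7.64 in controls, and their summed signal was 927 to 1384, 3914 to 16596 and 754 to 6004 in the same groups. The lung's own alveolar type II markers averaged 11.8 to 12.4 in left 3 h lungs and 12.6 to 12.7 in controls. Neutrophil markers (7 genes) averaged 8.73 to 9.98 in left 3 h lungs and 8.60 to 9.69 in right 3 h lungs, against 7.75 to 8.32 in controls (of 6 tested, 3 higher and 1 lower in left 3 h lungs), and the part of these cells in the members' differences was not tested.

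Promoters are shown for 3 genes whose signals moved in different ways, since nuclear respiratory genes are known to be driven in part by NRF-1 and by ETS factors of the GABP family. The 250 bases before the annotated start come from RefSeq on build GRCr8, which 76 of the 85 members matched by gene identifier. Capitals mark a match on either strand to GCGCA and GCGC with any 1 base between them (NRF-1) or to CCGGAAG (ETS), and no match overlapped another in these 3. Ndufaf4 (chr5:43401545-43401794, plus strand) holds an NRF-1 match, Ndufs8 (chr1:210573699-210573948, minus strand) an ETS match near its start, and Ndufa4l2 (chr7:65241919-65242168, plus strand) holds neither.
Ndufaf4: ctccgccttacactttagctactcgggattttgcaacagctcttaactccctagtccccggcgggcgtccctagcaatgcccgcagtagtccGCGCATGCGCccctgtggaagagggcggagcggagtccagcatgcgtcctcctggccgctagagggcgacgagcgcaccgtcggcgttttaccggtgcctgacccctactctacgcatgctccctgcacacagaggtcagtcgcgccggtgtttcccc
Ndufs8: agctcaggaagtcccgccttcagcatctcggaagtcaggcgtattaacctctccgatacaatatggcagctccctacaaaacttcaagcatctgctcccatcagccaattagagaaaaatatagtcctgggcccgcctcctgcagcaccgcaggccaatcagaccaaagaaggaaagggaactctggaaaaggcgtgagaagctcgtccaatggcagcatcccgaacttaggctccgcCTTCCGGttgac
Ndufa4l2: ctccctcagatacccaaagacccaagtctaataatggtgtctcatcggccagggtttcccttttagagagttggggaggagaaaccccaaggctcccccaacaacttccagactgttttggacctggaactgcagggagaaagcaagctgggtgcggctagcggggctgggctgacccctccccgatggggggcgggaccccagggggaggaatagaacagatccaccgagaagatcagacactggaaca
The NRF-1 letters stood in 12 of 76 member promoters (15.8%), against 4.17% of 27457 promoters of the same length. The ETS letters stood in 20 (26.3%), against 7.74%. The estrogen-related receptor letters AAGGTCA stood in 6 (7.89%) against 3.77%, and ACGTG, the core of the hypoxia response element, in 18 (23.7%) against 16.9%. A match describes these letters only.

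In clamped left lungs at 3 h, 11 members were lower than in control and 1 was higher, which is 14.3% of 84, against 37.6% of all 7726 genes tested (24.1% lower and 13.5% higher). Of the 11, 8 were complex I subunits: Ndufa4l2, Ndufs8, Ndufb10, Ndufb8, Ndufs1, Ndufa9, Ndufab1 and Ndufb7. That is 22.2% of the 36 complex I subunits tested, near the share of all genes called lower. The others were the assembly factor Ndufaf7, the complex IV subunit Cox6b1 and the ATP synthase subunit Atp5f1a. The higher one was the assembly factor Ndufaf4. The member median was -0.09, against -0.13 for all genes, so relative to the whole array it lay at 0.04. In whole lung, fewer cells of a type and less RNA per cell cannot be told apart.

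**Figure D1:**
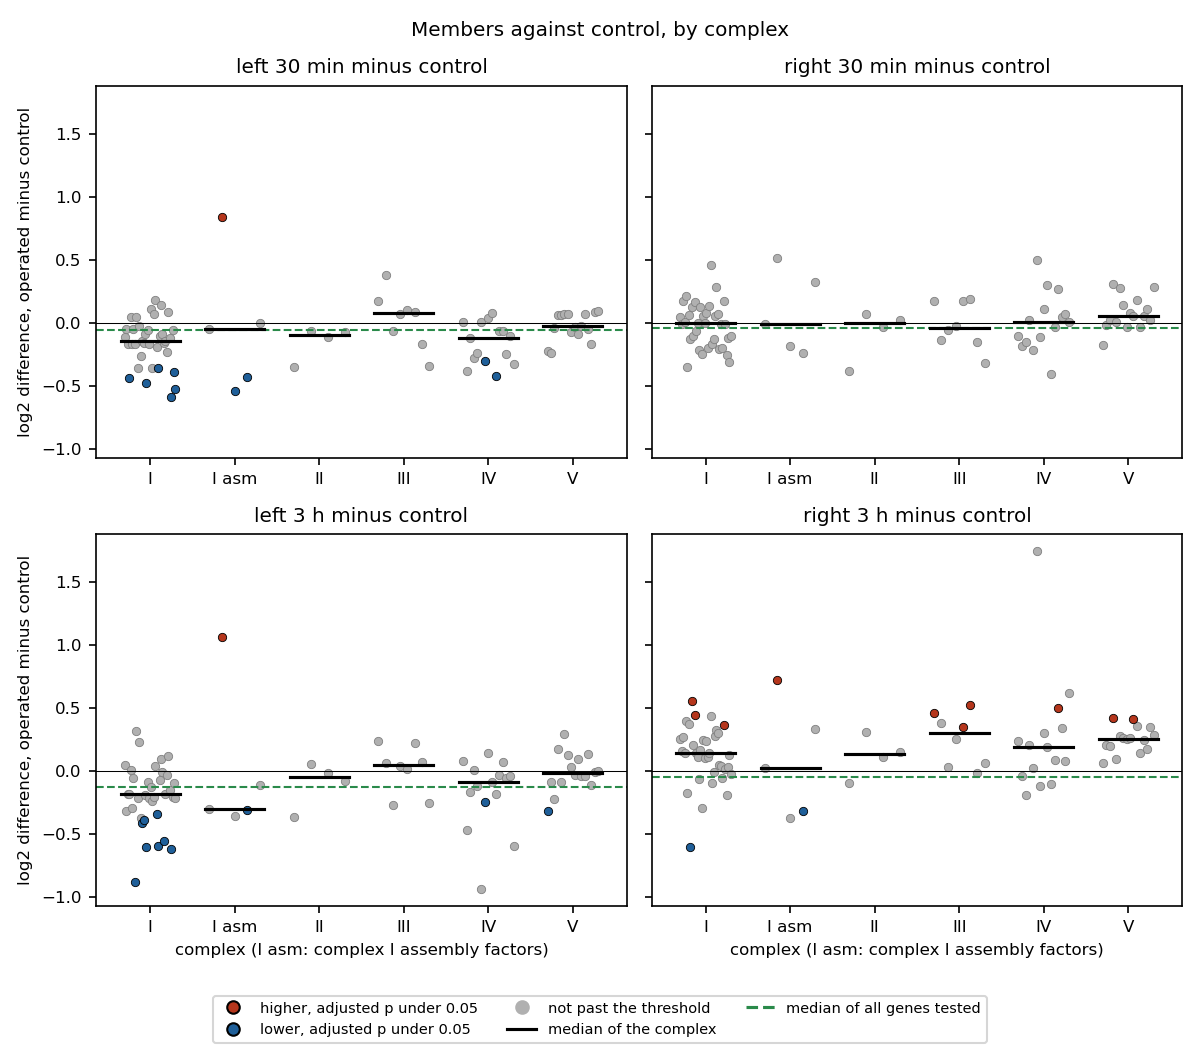
Log2 difference from control for each of the 84 tested members (points, grouped along the horizontal axis by complex; I asm, complex I assembly factors), with left lungs in the left column and right lungs in the right column, 30 min above 3 h. Coloured points passed the adjusted p of 0.05. In left 3 h lungs 8 of 36 complex I points are called lower (22.2%, against 24.1% of all genes), and in right 3 h lungs all 16 complex V points lie above 0.

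Ndufa4l2, a paralogue of Ndufa4 known from other studies as a target of the hypoxia factor HIF-1 that restrains complex I, had signals of 215, 211 and 248 in left 3 h lungs, against a lowest of 363, a median of 448 and a highest of 482 in controls. All 3 left lungs lay below all 6 controls, a fall by 0.88 ± 0.15 on the log2 scale (adjusted p = 0.000313, limma). Left lungs at 30 min had 355, 505 and 317, which overlap the controls. The step from 30 min to 3 h in left lungs was -0.72 ± 0.17 (adjusted p = 0.0347, limma), and the 3 h lungs lay below the 30 min lungs without overlap. It was the only member called between these times, 1.19% of 84 against 3.07% of all genes (1.23% higher, 1.84% lower), and the call ended without either of replicates 1 and 2 of either group (adjusted p up to 0.134 in limma over arrays left out). Right lungs gave 342, 434 and 416 at 30 min and 327, 306 and 211 at 3 h, the 3 h difference from control being -0.61 ± 0.15 (adjusted p = 0.00903, limma). That right 3 h call ended without right 3 h replicate 3, the lowest of them. Its paralogue Ndufa4, counted here with complex I by its symbol though now placed in complex IV, gave 2197, 2681 and 2168 in left 3 h lungs and 2035, 2469 and 2659 as lowest, median and highest in controls, which overlap.

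Ndufs8 carries iron-sulfur clusters near the quinone site of complex I. Its signals were 451, 505 and 441 in left 30 min lungs and 390, 533 and 445 in left 3 h lungs, against 607, 723 and 767 as lowest, median and highest in controls. Every left lung lay below every control, with differences of -0.59 ± 0.11 at 30 min (adjusted p = 0.00173) and -0.62 ± 0.11 at 3 h (adjusted p = 0.000521, both limma). Right lungs gave 564, 598 and 609 at 30 min and 634, 701 and 531 at 3 h, with means of 590 and 622 against 712 in controls. Only the lowest control, at 607, lay within their range, the other controls being at 704 to 767. Neither right difference from control passed the test. Ndufs1, the large iron-sulfur subunit of the NADH arm, had 338, 417 and 393 in left 3 h lungs, against 533, 582 and 590 in controls. These did not overlap, and the difference was -0.56 ± 0.14 (adjusted p = 0.00555, limma). At 30 min Ndufs1 had 520, 471 and 543 in left lungs, a difference from control of -0.16 ± 0.14 that did not pass.

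**Figure D2:**
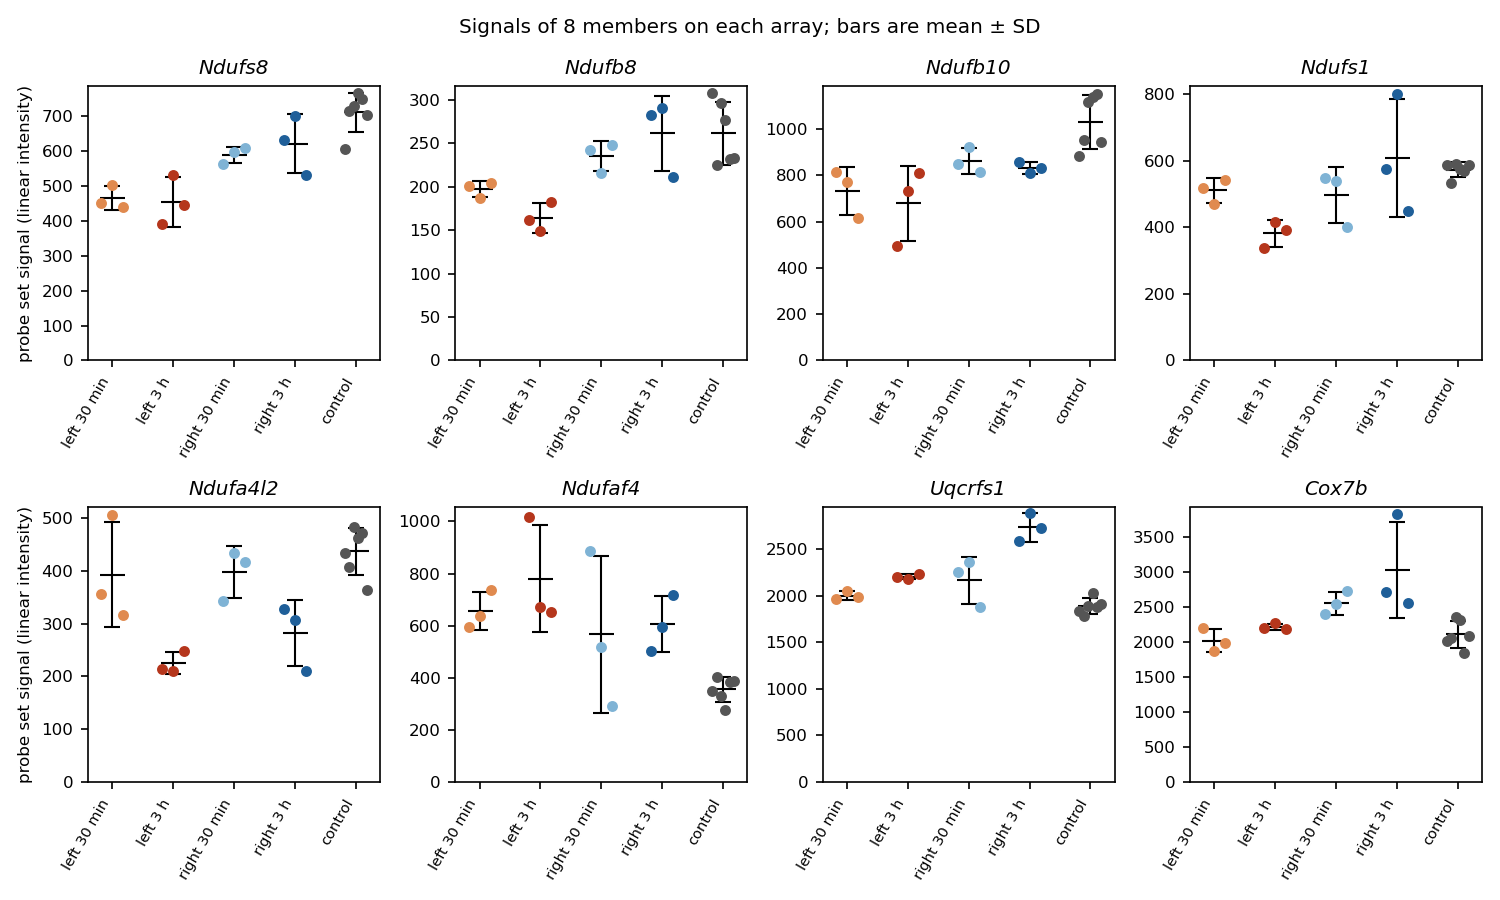
Probe set signal (linear intensity) of 8 members on every array, 1 point per lung, with bars for the mean ± SD of each group. Left 3 h lungs lie below all controls for Ndufs8, Ndufb8, Ndufb10, Ndufs1 and Ndufa4l2, and right 3 h lungs lie above all controls for Ndufaf4, Uqcrfs1 and Cox7b.

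Accessory subunits of the membrane arm were among the lower members. Ndufb8 gave 161, 149 and 182 in left 3 h lungs and 201, 186 and 204 in left 30 min lungs, against 224, 255 and 308 in controls. Both left groups lay below all controls, by -0.59 ± 0.12 at 3 h (adjusted p = 0.00131) and -0.36 ± 0.12 at 30 min (adjusted p = 0.0458, both limma). Ndufb10 gave 495, 731 and 810 in left 3 h lungs and 814, 771 and 615 in left 30 min lungs, against 886, 1034 and 1154 in controls, again without overlap, with a difference of -0.61 ± 0.14 at 3 h (adjusted p = 0.00288, limma) and -0.48 ± 0.14 at 30 min (adjusted p = 0.022, limma). In right lungs Ndufb10 averaged 863 ± 55 (SD) at 30 min and 834 ± 26 at 3 h, against 1032 ± 117 in controls. Both right means lay below the lowest control too, though neither right difference passed the test. Ndufb7, of the same arm, was lower in left 3 h lungs by a smaller amount (-0.34 ± 0.12, adjusted p = 0.0385, limma). Ndufa9, next to the quinone site, was at 657, 769 and 668 in left 3 h lungs, below the 885, 916 and 1044 of controls (-0.41 ± 0.10, adjusted p = 0.00564, limma). Ndufab1, the mitochondrial acyl carrier protein, differed by -0.39 ± 0.14 at 3 h with overlapping groups (adjusted p = 0.0318, limma).

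The 3 h calls of Ndufa4l2, Ndufa9, Ndufaf4, Ndufb10, Ndufb8, Ndufs1 and Ndufs8 held whichever of the 18 arrays was left out. Ndufaf7 lost its call without left 3 h replicate 2. Ndufab1 lost it without any 1 of 5 arrays, and Atp5f1a and Ndufb7 without any 1 of 6, among them left 3 h replicates 1 and 3 in each case. Cox6b1 lost it without any 1 of 15 and had an adjusted p of 0.049 with all arrays. With arrays centred on their medians, which moves the median of all genes to 0.03, the split became 8 higher and 5 lower and the member median 0.08. Of all 7726 genes tested, 1510 were then higher and 956 lower (31.9% in either direction). The 5 lower members were Ndufa4l2, Ndufb10, Ndufb8, Ndufs1 and Ndufs8.

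At 30 min, 10 members were lower in clamped left lungs than in control and 1 was higher, 13.1% against 18.2% of all genes tested (9.51% lower, 8.65% higher). Beside Ndufs8, Ndufb10 and Ndufb8 the lower ones were Ndufv3 (-0.53 ± 0.16) and Ndufv2 (-0.39 ± 0.13) of the NADH arm, Ndufa13, the assembly factors Ndufaf5 and Ndufaf7, and the complex IV subunits Cox7a1 and Cox6b1. Ndufa13, also known as GRIM-19, had 1008, 940 and 991 in left 30 min lungs and 1159, 1297 and 1070 in left 3 h lungs, against 1228, 1314 and 1475 in controls. The 30 min lungs were below all controls (-0.44 ± 0.10, adjusted p = 0.00607, limma), while the 3 h difference of -0.18 ± 0.10 did not pass. Cox7a1, the heart and muscle form of a complex IV subunit, had 632, 548 and 612 in left 30 min lungs, below the lowest control of 633 (-0.42 ± 0.15, adjusted p = 0.0488, limma).

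The 30 min calls of Ndufs8, Ndufa13 and Ndufaf7 held whichever array was left out. Ndufaf4 and Ndufb10 lost theirs without left 30 min replicate 3, Ndufaf5 without replicate 1 or 2, and the other 5 without any 1 of 5 to 14 arrays. Left 30 min replicates 1 and 3 had the raised actin ratios given above. With the actin ratio as a covariate, 3 members stayed lower (Ndufa13, Ndufaf7 and Ndufs8) and Ndufaf4 stayed higher. The 7 that lost their call were as far below control in that fit or farther, at -0.32 to -0.62 (adjusted p = 0.0507 to 0.129, limma). With arrays centred on their medians, 4 members were lower and 1 higher, against 430 and 853 of all 7726 genes tested. In that fit 42 members lay on each side of 0.

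Of the 5 complex I assembly factors, Ndufaf4 was higher and Ndufaf5 and Ndufaf7 were lower in at least 1 comparison with control, while Ndufaf3 and Ndufaf8 were not called. Ndufaf4, which helps to build the arm that binds quinone, had 593, 636 and 738 in left 30 min lungs and 1016, 671 and 652 in left 3 h lungs, against 276, 367 and 402 in controls. All 6 left lungs lay above all controls, by 0.85 ± 0.24 at 30 min (adjusted p = 0.0175) and 1.06 ± 0.24 at 3 h (adjusted p = 0.00226, both limma), a fold of 2.09 at 3 h. Right lungs had 888, 519 and 292 at 30 min, which overlap the controls, and 504, 595 and 717 at 3 h, which do not (0.73 ± 0.24, adjusted p = 0.0358, limma). Ndufaf7, a mitochondrial methyltransferase, had 174, 166 and 200 in left 30 min lungs, 202, 184 and 205 in left 3 h lungs and 204, 200 and 184 in right 3 h lungs, against 230, 250 and 271 in controls. Each of these groups lay below all controls, at -0.43 ± 0.09, -0.31 ± 0.09 and -0.32 ± 0.09 (adjusted p = 0.00376, 0.0141 and 0.021, limma). Ndufaf5, which hydroxylates an arginine of Ndufs7, was called lower only in left lungs at 30 min (150, 143 and 232, against 243, 254 and 296 in controls). The difference there was -0.54 ± 0.15 (adjusted p = 0.0161, limma). Its means were also below the control mean of 261 ± 19 (SD) elsewhere, without a call. They were 201 ± 45 in left 3 h, 228 ± 33 in right 30 min and 196 ± 23 in right 3 h lungs.

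**Figure D3:**
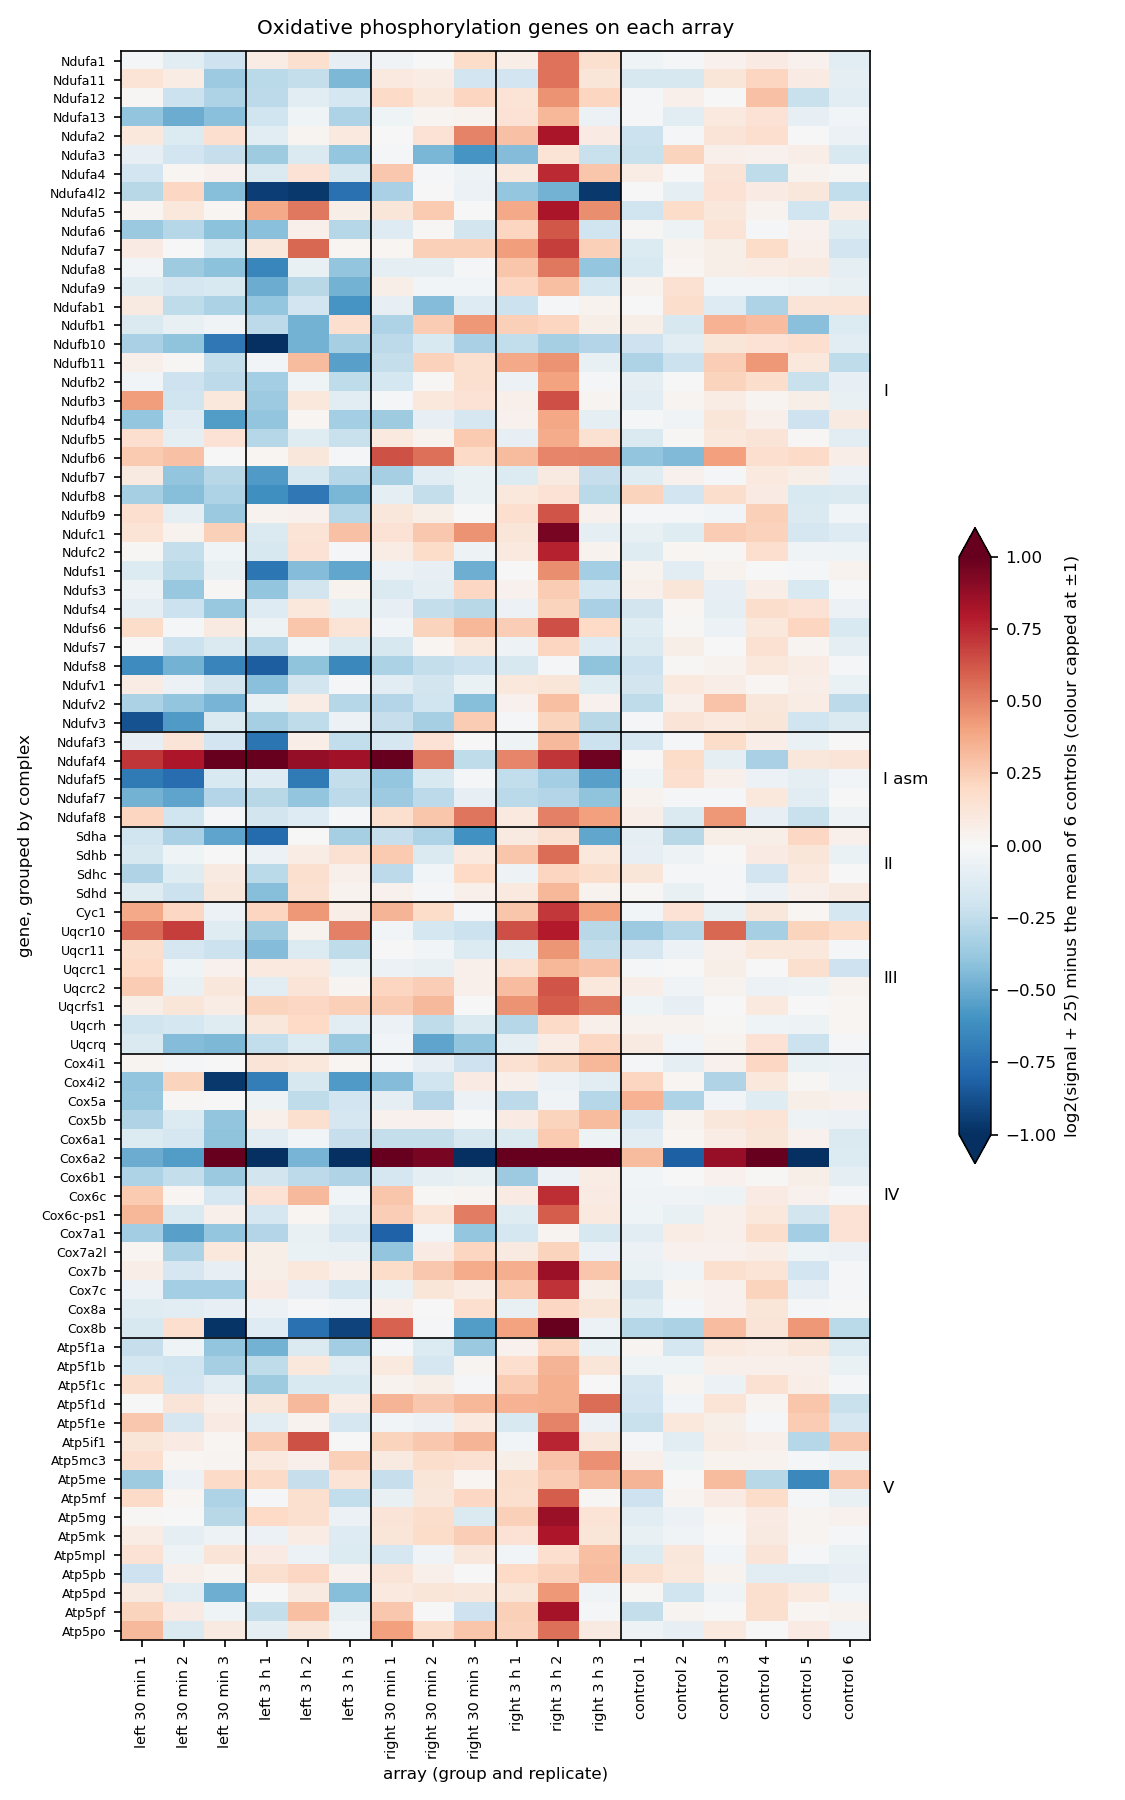
Log2(signal + 25) of the 84 tested members on each of the 18 arrays minus the mean of the 6 controls, colour capped at 1 in both directions, genes in rows by complex and arrays in columns by group. Right 3 h replicate 2 is red over nearly all rows (75 of 84 members above the control mean), and Cox6a2 is blue on all 3 left 3 h arrays, red on all 3 right 3 h arrays and of both colours in the other groups.

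In unclamped right lungs at 30 min no member was called against control by limma, against 12.2% of all genes tested (5.93% higher, 6.3% lower). At an unadjusted limma p under 0.05, 7 members were higher and 7 lower, against 926 and 1185 of all 7726 genes. The members lay on both sides of 0, with 44 above and 40 below and a median of 0.01.

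At 3 h the right lungs had 10 members higher than control and 2 lower, 14.3% against 20.4% of all genes tested (7.75% higher, 12.6% lower). Higher were 3 complex III subunits, Uqcrfs1, Cyc1 and Uqcrc2, the complex I subunits Ndufa5, Ndufa7 and Ndufs6, Ndufaf4, the complex IV subunit Cox7b, and Atp5f1d and Atp5mg of the ATP synthase. Lower were Ndufa4l2 and Ndufaf7. Of the 84 members 67 lay above 0, including 16 of 16 of complex V, and their median was 0.18 against -0.05 for all genes.

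Uqcrfs1, the Rieske iron-sulfur protein of complex III, gave 2585, 2894 and 2726 in right 3 h lungs, against 1783, 1889 and 2026 in controls. The right 3 h lungs lay above every control (0.53 ± 0.09, adjusted p = 0.000597, limma). Left 3 h lungs, at 2205, 2180 and 2229, were also above every control, but the difference of 0.22 ± 0.09 did not pass (adjusted p = 0.0605, limma). Cyc1, cytochrome c1 of the same complex, gave 1934, 2616 and 2104 in right 3 h lungs, against 1402, 1585 and 1758 in controls (0.46 ± 0.13, adjusted p = 0.0179, limma). Ndufa5, an accessory subunit of the matrix arm, gave 372, 514 and 396 in right 3 h lungs and 240, 292 and 321 in controls, without overlap (0.55 ± 0.13, adjusted p = 0.00612, limma). Cox7b, a small complex IV subunit, gave 2721, 3827 and 2554 in right 3 h lungs, against 1842, 2073 and 2363 in controls (0.50 ± 0.12, adjusted p = 0.00794, limma). Atp5f1d, in the central stalk of the ATP synthase, gave 1921, 1937 and 2226 in right 3 h lungs and 1284, 1508 and 1832 in controls (0.42 ± 0.11, adjusted p = 0.0141, limma).

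Right 3 h replicate 2 was the highest of its group for Uqcrfs1, Cyc1, Ndufa5 and Cox7b. Its median deviation from the control mean over the 84 members was 0.36, against 0.10 and 0.04 in replicates 1 and 3. The same array had the highest heart muscle marker mean of all 18 (8.65) and the highest signal of Ucp1, the uncoupling protein of brown fat (458, against at most 102 on any other array). Without it, 3 members were higher (Atp5f1d, Ndufa5 and Uqcrfs1), the same 2 were lower, 53 lay above 0 and 31 below, and the median was 0.05. With the heart marker mean as a covariate the same 3 and 2 were called. In that fit 11.4% of all 7726 genes tested were called (350 higher and 530 lower), against 20.4% without the covariate. The 7 members that lost their call differed by 0.25 to 0.58 with the covariate (adjusted p = 0.0676 to 0.215, limma). Cyc1, Ndufa7 and Ndufs6 stood at 0.45, 0.45 and 0.40, against 0.46, 0.45 and 0.36 without it. Cox7b, Atp5mg, Uqcrc2 and Ndufaf4 stood at 0.39, 0.31, 0.25 and 0.58, against 0.50, 0.41, 0.35 and 0.73 without it. The calls of Ndufa5 and Uqcrfs1 held whichever array was left out. Those of Cox7b and Cyc1 ended without replicate 2, and those of Atp5f1d, Ndufaf7 and Ndufa4l2 without replicate 3. Ndufa7, Ndufaf4, Atp5mg, Uqcrc2 and Ndufs6 lost theirs without any 1 of 3 to 12 arrays, replicate 2 in each case among them. With arrays centred on their medians, 24 members were higher and 1 lower, against 829 and 630 of all 7726 genes tested.

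Complex II, which joins the tricarboxylic acid cycle to the chain, had no called member in any comparison. Sdha, its flavoprotein, gave 1133, 1952 and 1550 in left 3 h lungs and 2075, 2178 and 1359 in right 3 h lungs, against 1611, 2027 and 2257 in controls, all overlapping. Sdhb, the iron-sulfur subunit, was 0.31 ± 0.11 above control in right 3 h lungs (adjusted p = 0.0565, limma). The membrane anchors Sdhc and Sdhd differed from control by -0.11 to 0.16 over the 4 operated groups.

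Complex IV holds several subunits with a common form and a form of heart, muscle or lung. Cox6a2, the heart and muscle form, gave 14.0, 45.2 and 22.6 in left 3 h lungs, 337, 162 and 13.1 in right 30 min lungs and 278, 542 and 177 in right 3 h lungs, against a lowest of 10.8, a median of 79.5 and a highest of 198 in controls. Left 30 min lungs gave 43.7, 40.7 and 179. All 3 left 3 h lungs lay below all 3 right 3 h lungs, while left 30 min, right 30 min and control lungs overlapped each other and both of these groups. Cox6a2 rose with the heart marker mean within groups, by 1.37 ± 0.13 log2 per log2 unit (adjusted p = 8.89e-06, limma). It was the only member of 84 called for this slope (1.19%, against 0.246% of all genes, 0.233% upward and 0.0129% downward). The call held whichever array was left out. Of the 84 slopes 63 lay above 0, with a median of 0.05, against 3917 of 7726 and 0.001 for all genes. Cox8b, another muscle form, gave 215, 131 and 113 in left 3 h lungs and 321, 722 and 226 in right 3 h lungs, against 185, 226 and 328 in controls, and was not called against control. The common forms Cox4i1, Cox6a1 and Cox8a differed from control by -0.24 to 0.24 over the 4 operated groups, with none called. Cox4i2, the oxygen-linked form that lung expresses strongly, gave 306, 454 and 335 in left 3 h lungs and 408, 516 and 595 in controls (-0.47 ± 0.20, adjusted p = 0.0662, limma). Cox7a2l, which helps to join complexes III and IV, differed from control by at most 0.08 in any operated group. Cox6c-ps1 is a near copy of Cox6c, and its probe set may read both.

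**Figure D4:**
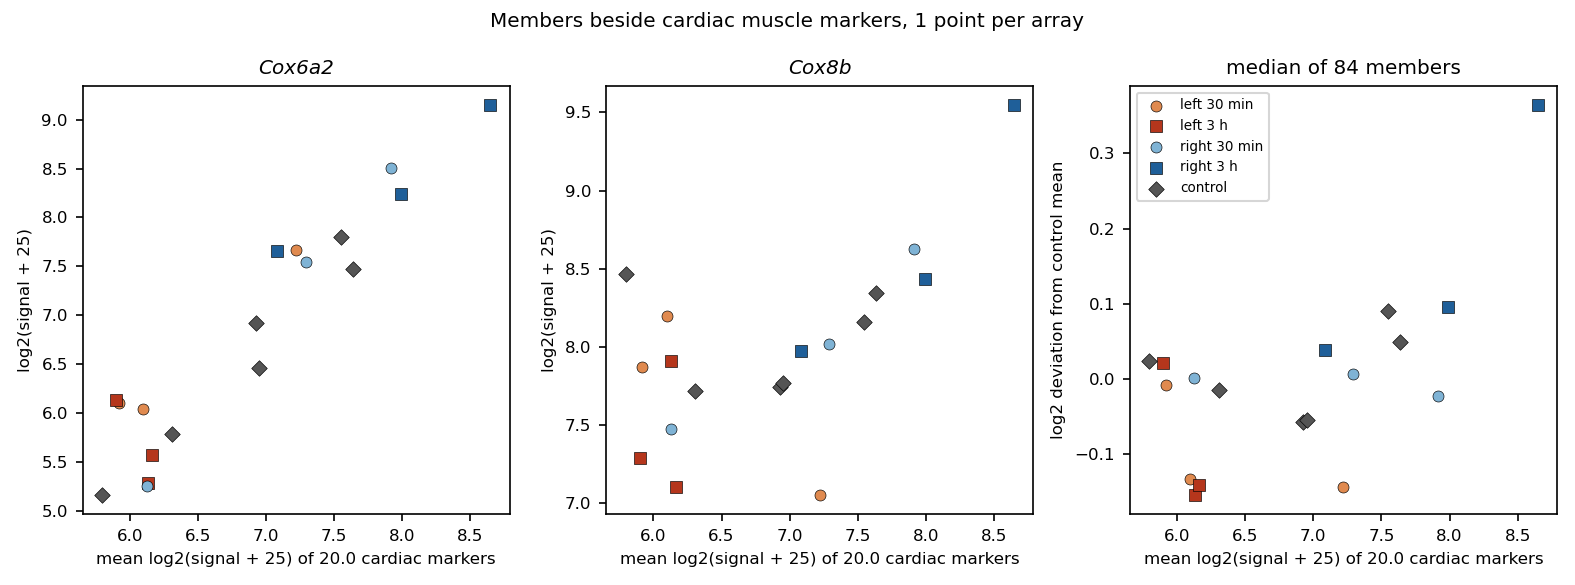
Log2(signal + 25) of Cox6a2 (left) and Cox8b (middle), and the median deviation of the 84 tested members from the control mean (right), against the mean of 20 heart muscle markers, 1 point per array. Cox6a2 climbs with the markers over all arrays, while the member median stands apart mainly on right 3 h replicate 2, at 0.36.

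Clamped left lungs were set against the unclamped right lungs of the same time. At 30 min no member was called by limma, against 0.0518% of all genes tested (0.0129% higher and 0.0388% lower). At an unadjusted limma p under 0.05, 0 members were higher and 6 lower, against 314 and 330 of all 7726 genes. Of the 84 members 69 lay below 0, with a median of -0.11, against 3977 of 7726 and -0.01 for all genes. The members share arrays, so these signs are not independent. Median deviations of the members from the control mean were -0.01, -0.13 and -0.14 in left 30 min replicates 1, 2 and 3. At 3 h Ndufb8 and Ndufa9 were lower in left lungs, 2.38% of 84 against 2.37% of all genes tested (1.75% higher, 0.621% lower), and 77 of 84 lay below 0, with a median of -0.29 against -0.07 for all genes. Ndufb8 had 161, 149 and 182 in left 3 h lungs against 282, 291 and 211 in right 3 h lungs (-0.59 ± 0.14, adjusted p = 0.0347, limma). Ndufa9 had 657, 769 and 668 against 1091, 1158 and 824 (-0.53 ± 0.12, adjusted p = 0.0316, limma). In both the 3 left lungs lay below the 3 right lungs.

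Both calls ended when any 1 of 4 arrays was left out, right 3 h replicates 1 and 2 among them in each. They also ended with the heart marker mean as a covariate (0 called, Ndufa9 at -0.43 and Ndufb8 at -0.36). In that fit 0.233% of all genes tested were called, against 2.37% without the covariate. Without right 3 h replicate 2 the median was -0.16, and without right 3 h replicate 3, the lowest right lung for both, 10 members were called lower. The heart markers, 5.90 to 6.16 in left and 7.08 to 8.65 in right 3 h lungs, move with this comparison, and beyond the covariate fit their part in it was not tested. The change of the left-right difference between the times gave no call in limma, against 0.233% of all genes tested (0.207% upward and 0.0259% downward). At an unadjusted limma p under 0.05, 0 members were higher and 3 lower, against 271 and 275 of all 7726 genes. Right lungs at 3 h against 30 min also gave no call in limma, against 0.194% of all genes tested (0.0129% higher and 0.181% lower). At the unadjusted threshold 7 members were higher and 1 lower, against 388 and 569 of all 7726 genes. Of the 84 members 76 lay above 0, with a median of 0.17, against 3604 of 7726 and -0.02 for all genes. Without right 3 h replicate 2, 54 members lay above 0 and their median was 0.04. The median difference of the 12 tested heart markers was 1.20 in the same comparison, and it was 0.14 for the members with the heart marker covariate.

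**Figure D5:**
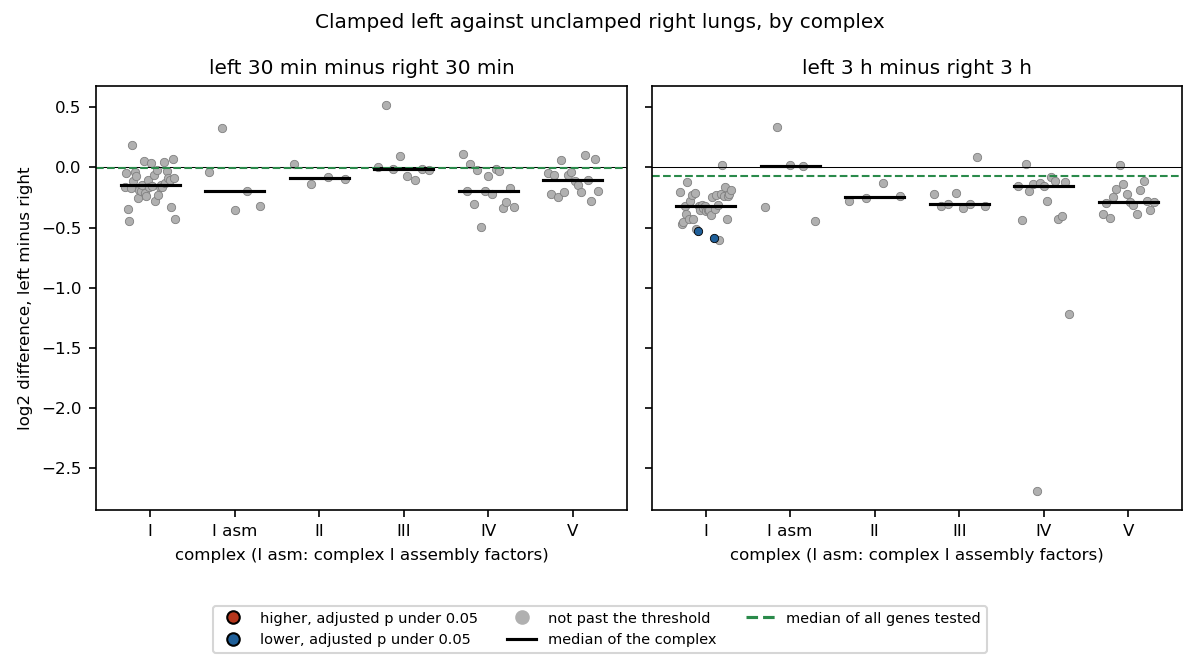
Log2 difference of clamped left minus unclamped right lungs at 30 min and at 3 h for the 84 tested members, grouped by complex, with the median of each complex (black) and of all genes tested (dashed). At 3 h nearly all points lie below 0, the 2 called being Ndufb8 and Ndufa9, and the lowest point is Cox6a2 at -2.69 (adjusted p = 0.0624).

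Genes that serve the chain were counted from fixed lists, against the same background of all genes tested (in left 3 h lungs, 13.5% higher and 24.1% lower). Of 11 genes of hypoxic control, 5 were higher in left 3 h lungs and none lower. Among them Higd1a, which binds complex IV and is induced by hypoxia, rose 2.08-fold (adjusted p = 1.23e-05, limma), and Bnip3, a mitophagy receptor, and Ldha, a lactate dehydrogenase subunit, also rose (1.19 ± 0.19 and 0.86 ± 0.15). Of 10 mitochondrial chaperones and proteases, 4 were higher and 2 lower in left 3 h lungs. Hspd1, the matrix chaperonin Hsp60, was 2.88-fold above control in left 3 h lungs (adjusted p = 1.14e-05, limma) and 3.25-fold above right 3 h lungs (adjusted p = 0.000196, limma). Of 28 tested assembly factors outside the rule, 1 was higher and 9 lower in left 3 h lungs, with Cox20, a complex IV factor, at -0.89 ± 0.22. Of 15 tested genes of the tricarboxylic acid cycle and pyruvate dehydrogenase, 3 were higher and 3 lower in left 3 h lungs, Pdha1 by 0.68 ± 0.15 and Idh2 by -0.90 ± 0.19. Of 70 mitochondrial ribosomal proteins, 4 were higher and 18 lower. Of 20 electron carriers and exchangers, none was higher and 5 were lower in left 3 h lungs. In right 3 h lungs Ckmt2, Slc25a4 and Slc25a5 were higher and none lower, against 7.75% higher and 12.6% lower of all genes. Ckmt2, the mitochondrial creatine kinase of muscle, gave 391, 794 and 190 there, against 32 to 227 in controls. The highest was replicate 2, the array of highest heart marker mean. Of 8 tested biogenesis regulators, Ppard was higher and Polrmt and Polg, the mitochondrial RNA and DNA polymerases, were lower in left 3 h lungs. The median differences of the tested list members in left 3 h lungs were 0.19 for hypoxic control, 0.15 for chaperones and proteases, -0.27 for assembly factors, -0.15 for the cycle, -0.21 for ribosomal proteins, -0.14 for carriers and -0.29 for biogenesis regulators, beside -0.13 for all genes.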

How the data were processed

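Total RNA of 18 rat lungs was measured on 1-colour Affymetrix 230A arrays. Per the submitters' processing notes the deposited values came from MAS5, whose version is not given, and the series text names GeneSpring 7.2 for later analysis. The deposited intensity values are linear signals, with the 2% trimmed mean of each array set by the authors near 500.1, with no centring by gene seen, so no further scaling was applied.

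Values were taken as log2(signal + 25). Of 15923 probe sets, 57 control probe sets were left out and 10533 with at least 3 arrays above the 40th percentile of all signals (173.6) were tested. Gene names came from the platform annotation of 2016: 12783 probe sets had 1 symbol, 312 several and 2771 none, and only those with 1 were named. For 7 probe sets with several symbols, 1 symbol matched the rule, and these are out. Of 4 members with more than 1 probe set, only Sdhd had a second one tested, and neither passed in any comparison with control. Mitochondrially encoded respiratory genes were not measured among the named probe sets.

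All comparisons used limma 3.58.1 in R 4.3.3 (lmFit and eBayes, 5 group means over 18 arrays, two-sided). Shares over all genes use the 7726 genes with a tested probe set, 1 each. Adding 25 understates the change of low signals. Named were all called members, the tissue isoforms, Cyc1, the 4 Sdh genes, and from each other list up to 6 called genes of smallest adjusted p. The members and lists were chosen with earlier results of these data known. Marker means and the actin ratio were summarised in Python 3.11.15. The fit was tested on simulated arrays.

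The labels give left and right lungs of a time the same replicate numbers and say that both lungs of an animal were taken, but not that a number marks an animal. After subtracting group means, lungs of 1 number had correlations of 0.12, 0.31 and 0.15 at 30 min. Each was the highest that its left lung had with any right lung. At 3 h lungs of 1 number had -0.17, 0.07 and -0.15. There left lungs 1, 2 and 3 had their highest correlations with right lungs 3, 1 and 2 (0.34, 0.22 and 0.16). A block by replicate number may thus not join lungs of 1 animal at 3 h. Alternatives were another pseudocount, no filter, median centring, quantile normalization, the mean of a gene's probe sets, covariates for the actin ratio and the heart marker mean, fits without the 3 arrays of highest actin ratio, the replicate block, and leaving out each array.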

Additional observations from a re-analysis of the deposited data

Results flagged for a closer look

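Of 39 member genes and 11 array measures checked within the 6 controls, 3 genes held 1 control far from the other 5, and chance alone flags about 1 in 20. Ndufs8 was 607 in control replicate 1 and 704 to 767 in the other controls. All 6 left lungs were below that lowest control, and the left call at both times held without it. Right lungs lay on both sides of it, and all of them stayed below the other controls. Ndufs1 was 533 in control replicate 2 and 570 to 590 in the others, and the left 3 h call held without it. Ndufa4 was 2035 in control replicate 4 and 2438 to 2659 in the others, and it was called in no comparison with control.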

How the results depend on the processing

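Every alternative named above was run, and under none did a called member change its direction. Counts of called members moved as follows. Against control, left 30 min lungs had 11, and 5 with arrays centred on their medians, 2 without the 3 arrays of highest actin ratio (which leaves 1 left 30 min array, assumed to vary like the other groups), 7 with the heart marker covariate and 4 with the actin covariate. Right 30 min lungs had 0, and 1 without those 3 arrays. Right 3 h lungs had 12, and 25 with median centring and 5 with the heart marker covariate. Over all genes tested these 2 fits called 18.9% and 11.4%, against 20.4% in the main fit. Left against right at 3 h had 2, and 1 with no filter and 1 with median centring. It had 0 with the heart marker covariate and 4 with the replicate block (Cox8b, Ndufa9, Ndufb8 and Ndufs1). Over all genes tested, median centring, this covariate and the block called 2.6%, 0.233% and 3.59%, against 2.37% in the main fit. The block, whose numbers may not mark animals at 3 h, changed no other count. No paired fit against control was possible because controls share no animals with operated lungs. Left 3 h against left 30 min had 1 (Ndufa4l2), and 0 with no filter, quantile normalization or the actin covariate. Over all genes tested, quantile normalization and the actin covariate called 2.17% and 0.337% there, against 3.07% in the main fit. Without the 3 arrays of highest actin ratio, which leaves 1 left 30 min array, Ndufa4l2 differed by -1.09. Over arrays left out 1 at a time the counts ran from 5 to 13 (left 30 min), 8 to 14 (left 3 h), 0 to 2 (right 30 min) and 5 to 14 (right 3 h) against control, 0 to 10 for left against right at 3 h, 0 to 1 for left 3 h against left 30 min, 1 to 1 for the slope on heart markers and 0 to 0 elsewhere. The causes were not tested. Signals near the floor, such as Cox6a2 and Cox6b2, are the least precise.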

Other observations

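From the lists of supporting genes, Higd1a and Phb2 passed the test against control in all 4 operated groups, which share the 6 controls. How many of all genes tested did so was not counted. Higd1a, which binds complex IV, had signals of 1415, 1471 and 1176 in left 30 min lungs, 2174, 1798 and 1872 in left 3 h lungs, 1704, 1824 and 1565 in right 30 min lungs and 1289, 1677 and 1857 in right 3 h lungs, against 776 to 1006 in controls. No operated lung overlapped a control, and the differences were 0.54, 1.06, 0.86 and 0.77 in the same order (standard error 0.12 each). Phb2, a prohibitin of the inner mitochondrial membrane, differed by 0.26, 0.36, 0.34 and 0.48 (standard error 0.09 each). Pdha1, a subunit of the pyruvate dehydrogenase complex, passed in left 30 min (0.46 ± 0.15), left 3 h (0.68 ± 0.15) and right 3 h lungs (0.70 ± 0.15), and its partner Dld in left 3 h (0.55 ± 0.19) and right 3 h lungs (0.67 ± 0.19). Pdk1, a kinase that switches that complex off, passed in right 30 min lungs (0.42 ± 0.10) and in no other group.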
